A study of Mus musculus with 12 samples.

Results

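*Tcf7*, *Lef1*, *Id3*, *Myb*, *Foxo1*, *Foxp1* and *Satb1* encode transcription factors linked to the stem-like state of T progenitors. These 7 genes, chosen by symbol, were examined among the 25860 genes listed in RNA-seq of CD8+ T_prog_ cells, together with the 127 ATAC-seq peaks that carry their names among 23932 listed peaks. TCF1 (encoded by *Tcf7*) and LEF1 are related DNA-binding proteins that act with β-catenin or Groucho corepressors and keep T cells able to self-renew. FOXO1 is held out of the nucleus by AKT signaling and maintains genes of quiescence, homing and survival. ID3 blocks E proteins, MYB sustains progenitor renewal, FOXP1 maintains naive T cell quiescence, and SATB1 organizes chromatin in thymocytes and T cells.

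The cells came from pancreatic lymph nodes of *NOD-TCR 8.3* mice, an autoimmune diabetes strain with a transgenic receptor on its T cells that recognizes IGRP, an antigen of β cells. *NOD-TCR 8.3 UTX TCD* mice carried floxed UTX alleles and Lck-Cre, which is active in the T lineage from the thymus on, and *NOD-TCR 8.3 WT* mice lacked the UTX deletion. For controls without the transgenic receptor, the paper used Cre-negative littermates with floxed UTX. It does not spell out the floxed alleles and Cre of the *NOD-TCR 8.3 WT* mice. Only female mice were studied, according to the paper. UTX, encoded by the X-linked *Kdm6a*, is a histone demethylase of the MLL3/4 complexes, and the comparison asks what its loss does to the progenitor state. There were 3 libraries per genotype in each assay. By the labels the sorted cells were positive for Ly108 and negative for CXCR6, whereas the methods describe Ly108 without CD39. The age of the mice behind these libraries was not given in the sources used here. For the *NOD-TCR 8.3* donors of its transfer experiment the paper does give an age. The RNA-seq labels do not say that the libraries came from separate mice, so p-values measure the spread between these samples.

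Sequencing depth in reads counted to genes was 146456724, 144503203 and 193568919 for the WT RNA-seq libraries. It was 61512402, 175462433 and 187275082 for the UTX TCD libraries, so UTX TCD replicate 1 was the shallowest. Values are the authors' normalized counts, the reads of a gene divided by 1 size factor per library. Log2 fold changes are UTX TCD minus WT from limma on log2(normalized count + 1), a scale on which changes of lowly expressed genes appear smaller. Adjusted p-values are Benjamini-Hochberg values over the 14459 genes whose normalized counts averaged 10 or more. For a single gene, an exact permutation test of 3 against 3 cannot go below a two-sided p of 0.10.

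*Kdm6a* (chrX:18162575-18279936, + strand) was measured first as a check of the labels. Its normalized counts were 28365, 28949 and 29172 in WT and 24159, 24792 and 24579 in UTX TCD libraries. The 3 UTX TCD values were each lower than the lowest WT value. The log2 fold change was -0.23 (SE 0.04, limma adjusted p = 0.00114). The mean was 0.850 of the WT mean, so most *Kdm6a* reads were still present. These are whole-gene counts, and reads over the deleted exons were not separated here.

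The gate markers were then compared. *Slamf6*, which encodes Ly108, had normalized counts of 27732, 34096 and 23305 in WT and 36665, 30980 and 35425 in UTX TCD libraries, and the groups overlapped (log2 fold change 0.29, SE 0.12, limma adjusted p = 0.0890). Without WT replicate 2 the log2 fold change was 0.43 and passed (adjusted p = 0.00923), and without WT replicate 3 it was 0.16 (adjusted p = 0.256), the lowest and highest adjusted p over 16 alternatives. *Entpd1*, which encodes CD39, was low, at 4.42 to 29.6 normalized counts, or 2 to 30 reads per library, and highest in WT replicate 2. *Cxcr6* was not absent: WT libraries averaged 12033 ± 2146 normalized counts and UTX TCD libraries 5658 ± 355 (SD, n = 3 each). *Cxcr6* fell in UTX TCD cells, with a log2 fold change of -1.07 (SE 0.12, limma adjusted p = 0.000131). *Cd44*, which encodes an adhesion receptor that is high on T cells after antigen encounter, averaged 11830 ± 377 and 13342 ± 855 normalized counts (SD, n = 3 each) and was higher by adjusted p (log2 fold change 0.17, SE 0.05, limma adjusted p = 0.0322). That call was lost in 6 of 16 alternatives (adjusted p from 0.0135 to 0.102), among them each left-out library but UTX TCD replicate 2. In bulk libraries, fewer cells that express a gene and less RNA per cell cannot be told apart, and the part of the *Cxcr6* difference in the results below was not tested.

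All 7 transcription factor genes were expressed and passed the filter on low values. The first rule asked for an adjusted p under 0.05 together with a log2 fold change beyond 0.5 in either direction, and limma called 0 of the 7, against 17.6% of all genes tested. Before adjustment, 4 of the 7 had a p under 0.05, and the share of all genes at that limit was not counted. They are the same 4 that passed the second rule below, where the shares of all genes are given. On the recovered reads edgeR called 1 of the 7 and DESeq2 called 0. By the second rule, an adjusted p under 0.05 alone, 3 of the 7 were higher (*Lef1*, *Myb* and *Foxp1*), against 20.2% of all genes, and 1 was lower (*Foxo1*), against 20.5%. The remaining 3 (*Tcf7*, *Id3* and *Satb1*) did not pass. The groups did not overlap for 3 of the 7, against 51.9% of all genes tested. With 7 genes, these shares set nothing apart from the background.

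Among the TCF/LEF factors, *Lef1* rose and *Tcf7* did not pass the test. *Lef1* (chr3:131110471-131224356, + strand) had normalized counts of 105496, 109084 and 95133 in WT and 147801, 135057 and 120504 in UTX TCD libraries. Each UTX TCD library was above all WT libraries. The UTX TCD mean was 1.30 times the WT mean, with a log2 fold change of 0.38 (SE 0.08, 95% interval 0.20 to 0.56, limma adjusted p = 0.00517).

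*Tcf7* (chr11:52252371-52283014, − strand) had normalized counts of 244276, 234809 and 227810 in WT and 229604, 220872 and 221558 in UTX TCD libraries. The groups overlapped, since UTX TCD replicate 1 lay above WT replicate 3. This gave a log2 fold change of -0.07 (SE 0.05, 95% interval -0.19 to 0.04, limma adjusted p = 0.287).

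Of the forkhead genes, *Foxp1* rose in UTX TCD cells and *Foxo1* was lower by a small margin. *Foxp1* (chr6:98925338-99522721, − strand) had normalized counts of 58507, 62235 and 57555 in WT and 75741, 75130 and 73880 in UTX TCD libraries. The groups were clearly apart and the UTX TCD libraries varied little. *Foxp1* had a log2 fold change of 0.33 (SE 0.04, 95% interval 0.23 to 0.44, limma adjusted p = 0.000417), the smallest adjusted p of the 7.

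*Foxo1* (chr3:52268336-52353221, + strand) had normalized counts of 73774, 68351 and 75740 in WT and 64818, 67388 and 63734 in UTX TCD libraries. The groups did not overlap, but WT replicate 2 and UTX TCD replicate 2 lay close together. The log2 fold change was -0.15 (SE 0.05, 95% interval -0.27 to -0.04, limma adjusted p = 0.0391). This call was lost in 9 of 16 alternatives, with adjusted p-values from 0.0104 to 0.132 across them. It was lost without WT replicate 1, WT replicate 3 or any 1 of the 3 UTX TCD replicates, at adjusted p-values of 0.127, 0.132, 0.100, 0.0597 and 0.0883.

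*Myb* and *Id3* varied most between libraries of a genotype. *Myb* (chr10:21124935-21160984, − strand) had normalized counts of 13738, 17785 and 13240 in WT and 18571, 17632 and 27053 in UTX TCD libraries. WT replicate 2 lay above UTX TCD replicate 2, so the groups overlapped. The log2 fold change was 0.48 (SE 0.16, 95% interval 0.12 to 0.85, limma adjusted p = 0.0401). The call was lost in 6 of 16 alternatives, with adjusted p-values from 0.0219 to 0.127. Without UTX TCD replicate 3, the highest library, the log2 fold change was 0.29 (adjusted p = 0.0852), and the call was also lost without WT replicate 1 (0.113) or WT replicate 3 (0.112). *Myb* passed both limits without WT replicate 2 (0.62, adjusted p = 0.0219), UTX TCD replicate 1 (0.56, adjusted p = 0.0330) or UTX TCD replicate 2 (0.60, adjusted p = 0.0273).

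*Id3* (chr4:136143497-136145755, + strand) had normalized counts of 1755, 2918 and 1933 in WT and 2375, 2396 and 3574 in UTX TCD libraries. WT replicate 2 exceeded 2 of the 3 UTX TCD libraries. The log2 fold change of 0.35 did not pass (SE 0.21, 95% interval -0.12 to 0.81, limma adjusted p = 0.211). Without WT replicate 2 it was 0.57 with an adjusted p of 0.0359, and over the 16 alternatives the adjusted p ranged from 0.0359 to 0.566. *Id3* and *Myb* were both highest in WT replicate 2 within WT and in UTX TCD replicate 3 within UTX TCD.

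*Satb1* (chr17:51736187-51833290, − strand) had normalized counts of 119973, 123937 and 122832 in WT and 126485, 129479 and 121901 in UTX TCD libraries. UTX TCD replicate 3 lay within the WT range. Its log2 fold change was 0.04 (SE 0.04, 95% interval -0.06 to 0.14, limma adjusted p = 0.484), an interval that excludes a change beyond the fold limit of 0.5.

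**Figure D1:**
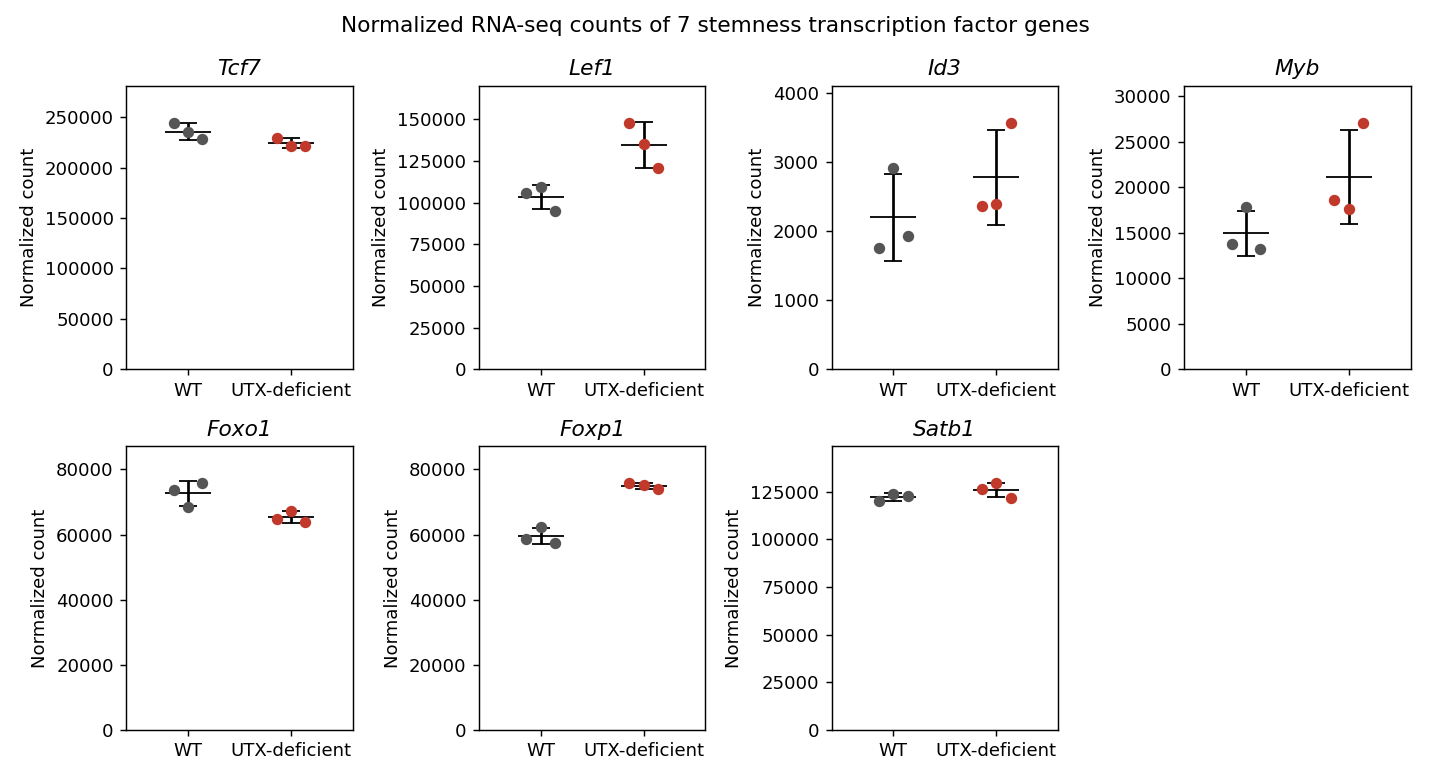
Normalized RNA-seq counts (y axis, from 0) of the 7 genes in 3 WT and 3 UTX-deficient (UTX TCD) libraries. Points are libraries, horizontal lines are means and bars are SD. For *Foxp1* the UTX-deficient points sit between 73880 and 75741, above the WT points, whereas the *Id3* and *Myb* groups overlap.

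Levels of different genes were compared per kb of annotated exon. In WT cells *Tcf7* was the most abundant at 89764 ± 3148 normalized counts per kb (SD, n = 3), followed by *Lef1* at 11748 ± 824 and *Foxo1* at 8381 ± 442. *Satb1* followed at 6425 ± 108, *Foxp1* at 4322 ± 180, *Myb* at 1670 ± 279 and *Id3* at 1230 ± 350. The order was the same in UTX TCD cells. *Myb* and *Id3* were the neighbors in this order that did not differ beyond their spread. The exon length joins the exons of all annotated transcripts, so genes with long alternative exons are placed too low.

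Over the 6 libraries, the genes most like each factor were found by Pearson r of log2(normalized count + 1) among 9913 genes with a mean of at least 500. These values are a description of 6 libraries that differed in genotype and in depth. *Foxp1* was most like *Pask* (r = 0.9997) and *Pafah2* (r = 0.999), which had log2 fold changes of 1.07 and 1.19. *Lef1* was most like *Mdk* and *Atxn2* (r = 0.996 and 0.995), and *Myb* was most like *Stag3* and *Slc25a40* (both r = 0.996). *Id3* was most like *Rif1* and *Zfp709* (r = 0.996 and 0.989), and *Foxo1* was most like *Gfus* and *Mtch1* (r = 0.999 and 0.998). *Tcf7* was most like *Seh1l* and *Tmem179b* (r = 0.986 and 0.983), and *Satb1* was most like *Tmem135* and *Zfp12* (r = 0.992 and 0.987).

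ATAC-seq reads out accessible chromatin through the insertion of adapters by a transposase. The listed peaks all passed the authors' test of genotype, so a region with no listed peak was not shown to be unchanged. Only the authors' mean log2 concentration per genotype was used, with no value per library, so differences between these means carry no error here. Of the 127 peaks of the 7 genes, 117 were higher in UTX TCD cells (92.1%), against 68.8% of all listed peaks. The means lay over 0.5 apart at 76 of the 127, a smaller share than the 73.1% of all listed peaks. Peaks of 1 gene share a locus and are not independent. The count was unequal: *Foxp1* had 50 peaks, the most of 10611 genes with a listed peak, *Lef1* 33, *Satb1* 23, *Foxo1* 15, *Tcf7* 4, and *Id3* and *Myb* 1 each. *Foxp1* is also the longest of the 7 genes at 597.4 kb.

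At *Lef1*, 30 of 33 peaks were higher and 3 were lower. All 20 peaks in intron 3 were higher, as were both peaks annotated to the promoter. The promoter peak at chr3:131109949-131110349 had mean log2 concentrations of 10.79 in WT and 11.23 in UTX TCD cells. The 3 lower peaks were intergenic and upstream of the gene. The largest fall, at chr3:130935128-130935528 and 175.0 kb from the start site, went from 8.13 to 6.66.

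At *Foxp1*, 48 of 50 peaks were higher, spread across the gene. The largest rise was in intron 4 at chr6:99057095-99057495, from a mean log2 concentration of 8.62 in WT to 10.13 in UTX TCD cells. The 2 lower peaks both lay in intron 1, and the larger fall was at chr6:99412566-99412966, from 7.30 to 6.32.

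At *Satb1*, all 23 listed peaks were higher, although its RNA did not pass the test. The largest rise of the 127 peaks was intergenic, 9.83 kb upstream of the start site at chr17:51842924-51843324, from a mean log2 concentration of 5.36 in WT to 7.57 in UTX TCD cells. The promoter peak at chr17:51833039-51833439 was already open in WT cells and went from 11.52 to 11.93.

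*Foxo1* peaks divided by position. All 11 peaks in intron 1 were higher, whereas the 3 peaks beyond the 3′ end of the gene were lower. The largest rise was at chr3:52297256-52297656, from 8.26 to 9.09 on the log2 scale, and the largest fall at chr3:52369193-52369593, from 7.13 to 6.41. The 12th higher peak, at chr3:52351308-52351708, was annotated by the authors as intergenic and lies inside *Foxo1* in GENCODE. *Foxo1* RNA was lower while most of its listed peaks were higher.

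**Figure D2:**
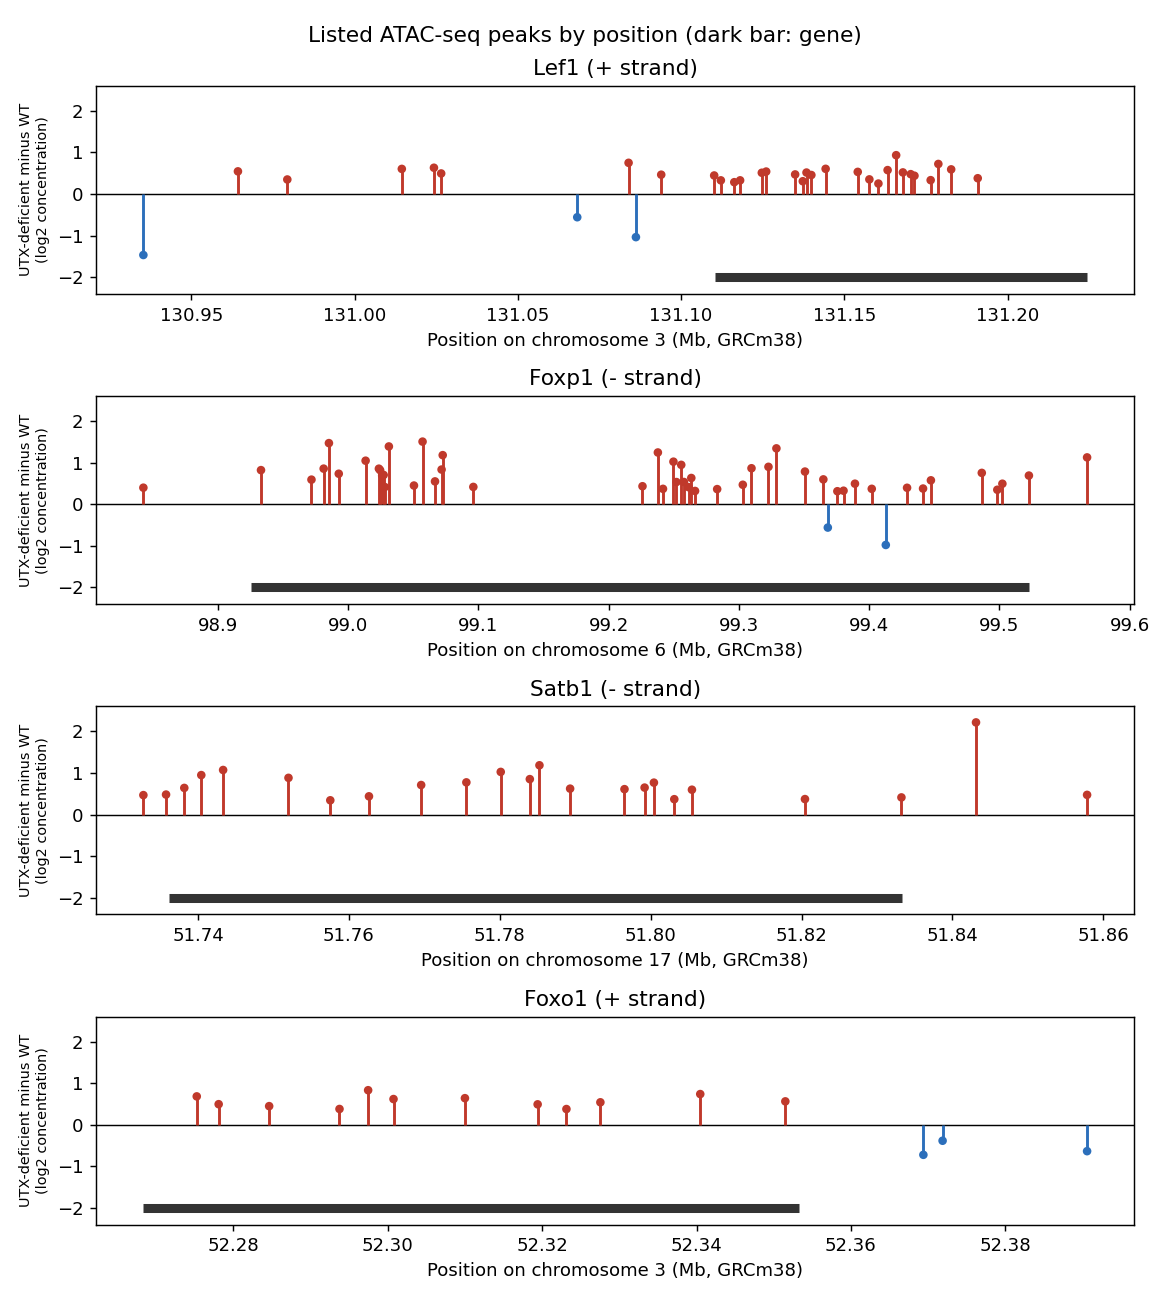
Difference of the authors' mean log2 ATAC-seq concentration (y axis, UTX-deficient minus WT) of each listed peak by position (x axis, Mb, GRCm38) at *Lef1*, *Foxp1*, *Satb1* and *Foxo1*. Red marks peaks higher and blue marks peaks lower in UTX-deficient cells, and the dark bar is the gene. 30 of 33, 48 of 50, 23 of 23 and 12 of 15 peaks are higher.

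*Tcf7*, *Id3* and *Myb* had few listed peaks. At *Tcf7*, the intron 3 peak at chr11:52265617-52266017 went from 11.54 to 11.96 and an intergenic peak 31.3 kb upstream, at chr11:52314092-52314492, from 11.98 to 12.36. Another higher peak lay 11.3 kb upstream and the lower one 37.6 kb upstream, where the mean went from 9.11 to 8.67. The *Id3* peak, 43.2 kb upstream at chr4:136100440-136100840, went from 10.10 to 9.60. The *Myb* peak, in exon 10 at chr10:21144874-21145274, was weak and went from 5.02 to 6.13.

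The central 121 bases were read from GRCm38, + strand, at the largest rise and the largest fall of each gene, where it had one, which gave 11 windows. To show the sequence where accessibility differed most, the 3 windows with the largest differences of the means are given. Capitals mark matches, on either strand, to the letters CTTTGAA or CTTTGAT (TCF/LEF), GTAAACA (FOXO), TGTGGTT (RUNX), CAGGAAG (ETS), TGANTCA (AP-1) or TTCNNNGAA (STAT).
*Satb1*, largest rise, chr17:51843064-51843184: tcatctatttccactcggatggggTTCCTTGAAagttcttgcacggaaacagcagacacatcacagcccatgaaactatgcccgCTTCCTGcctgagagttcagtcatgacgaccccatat
*Lef1*, largest fall, chr3:130935268-130935388: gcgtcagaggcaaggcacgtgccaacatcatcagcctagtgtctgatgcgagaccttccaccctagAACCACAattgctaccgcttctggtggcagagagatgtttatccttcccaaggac
*Foxp1*, largest rise, chr6:99057235-99057355: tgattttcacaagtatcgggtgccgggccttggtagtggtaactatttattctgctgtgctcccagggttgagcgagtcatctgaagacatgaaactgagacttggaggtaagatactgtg
The *Satb1* window held STAT and ETS letters, the *Lef1* window RUNX letters and the *Foxp1* window none of the 6. Of the 11 windows, 4 held letters of any of these motifs and 7 held none.

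Over whole peaks, the TCF/LEF letters were in 36 of the 127 peaks (28.3%), against 19.3% of the 23908 listed peaks on assembled chromosomes. The FOXO letters were in 11 of the 127 (8.66%), against 5.47%, and the RUNX letters in 26 (20.5%), against 17.7%. The AP-1 letters were in 20 (15.7%), against 12.8%, the ETS letters in 31 (24.4%), against 29.1%, and the STAT letters in 15 (11.8%), against 11.9%. A match is a description of the letters and not a binding site, and these shares were not tested.

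The relatives of the 7 factors were compared next. Of 14 paralogs, 11 were tested, of which 3 were higher (27.3%, against 20.2% of all genes tested) and 2 lower (18.2%, against 20.5%) at an adjusted p under 0.05. Their median log2 fold change was 0.10, against -0.00018 over all genes tested. *Mybl2*, a cell cycle relative of *Myb*, went from 587.9 ± 45.1 to 966.3 ± 59.1 normalized counts (SD, n = 3), with a log2 fold change of 0.72 (SE 0.10, limma adjusted p = 0.000434). *Mybl1* was also called higher, with a log2 fold change of 0.52. It fell short of the fold limit of 0.5 without WT replicate 3 or UTX TCD replicate 3 (0.48 each). *Tcf7l2* was called lower with a log2 fold change of -1.62, from 97.1 to 32.7 normalized counts.

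Of 45 names of TCF/LEF cofactors and canonical Wnt genes, 44 were listed and 37 tested, with 8 higher, 8 lower and 21 not passing, and a median log2 fold change of -0.03. The share was 21.6% in each direction, close to the 20.2% and 20.5% of all genes tested. *Rnf43*, a ubiquitin ligase that removes Wnt receptors, had normalized counts of 676.6, 531.2 and 544.5 in WT and 7083, 7266 and 8139 in UTX TCD libraries. Its log2 fold change was 3.69 (SE 0.10, limma adjusted p = 4.48e-08). *Axin2*, a feedback inhibitor often used as a readout of Wnt signaling, fell from 9123 ± 599 to 5372 ± 172 normalized counts (SD, n = 3, log2 fold change -0.76, SE 0.06). *Tle1*, a Groucho corepressor, was also called lower (-0.52). It fell short of the fold limit of 0.5 with libraries scaled to the same sum (-0.46) and without UTX TCD replicate 3 (-0.44). *Fzd10* (2.25), *Nkd1* (1.74) and *Fzd6* (1.19) were called higher, each with a mean of at most 33.2 normalized counts in either genotype. *Fzd10* averaged 3.14 normalized counts in WT and 19.7 in UTX TCD libraries, and *Nkd1* averaged 4.31 and 16.6. Both passed the filter on low values only through the UTX TCD libraries, so their tests are not read as results. The count of 8 higher includes both. *Nkd1* was not tested once any 1 UTX TCD library was left out, nor was *Fzd10* without UTX TCD replicate 3. The *Fzd6* call was lost in 4 of 15 alternatives. *Ctnnb1*, which encodes β-catenin, had a log2 fold change of -0.05 (limma adjusted p = 0.478).

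Of 7 E proteins and partners of ID3, 6 were tested and 1 was higher (16.7%, against 20.2% of all genes tested), with a median log2 fold change of 0.04. *Tcf4*, which encodes the E protein E2-2, rose from 782.9 ± 135 to 1486 ± 252 normalized counts (SD, n = 3, log2 fold change 0.92, SE 0.15, limma adjusted p = 0.00144). *Tcf3* and *Tcf12*, the more abundant E protein genes by normalized count, had log2 fold changes of -0.11 and -0.05 and did not pass.

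All 26 genes of the PI3K-AKT input to FOXO1 were tested, with 8 higher (30.8%, against 20.2% of all genes tested), 7 lower (26.9%, against 20.5%) and 11 not passing, and a median log2 fold change of -0.02. *Sgk1*, a kinase that phosphorylates FOXO factors, fell from 34706 ± 1537 to 16978 ± 2522 normalized counts (SD, n = 3, log2 fold change -1.04, SE 0.09, limma adjusted p = 3.73e-05). *Sgk3* fell too (-0.54). Over 16 alternatives the smallest *Sgk3* fall was -0.48, short of the fold limit of 0.5. *Pik3cb* (1.01) and *Pik3r3* (0.70), subunits of PI3K, and *Cdk2* (0.79) were called higher.

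Of 23 names of genes known to be activated by FOXO1, TCF1, LEF1 or MYB in T cells, 22 were listed and 20 tested, with 6 higher (30%, against 20.2% of all genes tested), 7 lower (35%, against 20.5%) and 7 not passing, and a median log2 fold change of -0.08. *Cxcr5* (1.45), *Bcl2* (1.28), *Ikzf2* (0.78) and *Eomes* (0.62) had the largest rises. With 1 library left out, the *Eomes* log2 fold change ranged from 0.46 to 0.70, so it could fall short of the fold limit of 0.5. *Bcl2*, a survival gene, had normalized counts of 18200, 17081 and 17912 in WT and 40707, 39557 and 49953 in UTX TCD libraries. *Il6ra* (-0.68) and *Pdcd1* (-0.69) were called lower, and the *Pdcd1* call was lost in 8 of 16 alternatives. *Il7r* did not pass, and WT replicate 2 stood apart with 79127 normalized counts, against 38077 and 37105 in the other WT libraries. The list moved in both directions.

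Markers of other cells were counted for purity, and the summed level of a list follows its most abundant gene. The CD8 T cell markers summed to 1095697 normalized counts in WT and 1049960 in UTX TCD cells on average, led by *Cd8a*. At an adjusted p under 0.05, 1 of 9 was higher (*Cd3e*) and 4 lower, against 20.2% and 20.5% of all genes tested. The *Cd3e* call was lost in 6 of 16 alternatives (adjusted p from 0.0128 to 0.155), among them each left-out library but UTX TCD replicate 3. Of the 4 lower, *Cd247* was lost in 7 of 16 (adjusted p from 0.00256 to 0.0910), among them each left-out library but WT replicate 2. The CD4 T cell markers summed to 430.1 and 355.9, led by *Foxp3*. Of 3 genes 0 were higher and 2 lower (*Cd4* and *Zbtb7b*), against the same 20.2% and 20.5% of all genes. The *Cd4* call was lost in 8 of 15 alternatives (adjusted p from 0.0349 to 0.101), among them each left-out library but UTX TCD replicate 2. The myeloid list summed to 560.7, 576.6 and 537.7 in WT and 159.7, 180.2 and 146.7 in UTX TCD libraries, led by *Itgam*, with *S100a8* and *S100a9* at 0 in all libraries. Of 4 tested genes 0 were higher and 2 lower, against the same 20.2% and 20.5% of all genes. Of the 2, *Csf1r* averaged 24.2 and 6.07 normalized counts and passed the filter on low values only through the WT libraries. Erythroid markers, led by *Hba-a1*, summed to 67.4, 46.4 and 34.3 in WT and 31.5, 24.0 and 155.5 in UTX TCD libraries, so that UTX TCD replicate 3 alone lay above WT, and the 1 gene tested did not pass. Acinar markers averaged 24.1 and 8.43. The 1 gene tested, *Cela1*, averaged 23.0 normalized counts in WT and 6.40 in UTX TCD libraries. It passed the filter on low values only through the WT libraries, so its test is not read as a result.

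The members of the B cell list moved in both directions. The list summed to 115847, 98157 and 107599 in WT and 97050, 91642 and 83432 in UTX TCD libraries, nearly all from *Ighm*, which encodes an immunoglobulin heavy chain. Of its 10 genes 8 were tested, of which 2 were higher and 3 lower, against 20.2% and 20.5% of all genes tested. With 8 genes, these counts set nothing apart from the background. *Cd22* rose from 86.8 ± 12.9 to 342.0 ± 139 normalized counts (SD, n = 3, log2 fold change 1.90, limma adjusted p = 0.000535), and *Ms4a1* was also called higher (1.72, adjusted p = 0.0367). *Cd79b*, which encodes a subunit of the B cell receptor, fell from 2299 ± 320 to 583.3 ± 98.8 normalized counts (SD, n = 3, log2 fold change -1.98, limma adjusted p = 1.47e-05). *Ighd* (-0.64) and *Ighm* (-0.22) were lower. *Pax5* and *Ebf1*, which encode transcription factors of B cell identity, stayed at or below 11.1 normalized counts in every library.

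Dendritic cell markers summed to 240.3 and 232.8 on average, led by *Xcr1*. Of 3 tested genes 0 were higher and 1 lower, against 20.2% and 20.5% of all genes tested. The 1 lower, *Itgax*, had 48.5, 24.7 and 55.7 normalized counts in WT and 0, 0 and 4.42 in UTX TCD libraries. It passed the filter on low values only through the WT libraries, so its test is not read as a result. *Zbtb46* averaged 32.7 and 60.3 and did not pass (limma adjusted p = 0.0541). The gamma-delta list averaged 62603 and 59325, led by *Trdc*, which was lower (-0.17, limma adjusted p = 0.0451). In the same list *Sox13* rose from 1774 ± 94.8 to 5195 ± 69.5 normalized counts (SD, n = 3, log2 fold change 1.55, limma adjusted p = 2.32e-07), with the groups apart. The *Ms4a1*, *Ighm* and *Trdc* calls were each lost without WT replicate 1, WT replicate 3, UTX TCD replicate 2 or UTX TCD replicate 3, with adjusted p-values over the alternatives of up to 0.119, 0.146 and 0.173.

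The NK cell list averaged 18858 and 26437, led by *Eomes*, which is also among the genes activated in T cells above. The sum is therefore not specific to NK cells. Of 3 tested genes 1 was higher and 0 lower, against 20.2% and 20.5% of all genes tested. *Ncr1* was at or below 6.93 normalized counts, whereas *Klrb1c* reached 55.3 in WT replicate 2. The stromal list averaged 31253 and 36652, nearly all from *Pecam1*, at 30622 and 35787. The sum therefore follows this gene and is not read as a measure of stromal cells. Of 3 tested genes 2 were higher (*Pecam1* and *Col1a2*) and 0 lower, against the same 20.2% and 20.5% of all genes. The *Pecam1* call was lost in 1 of 16 alternatives, without UTX TCD replicate 2 (adjusted p = 0.0518, range from 0.00139). The collagen genes of the list were detected in every library, with *Col1a1* at 253.7 to 474.6 normalized counts, whereas *Pdgfra* was at or below 3.96. *Col1a2* rose from 238.8 ± 72.6 to 407.4 ± 58.6 normalized counts (SD, n = 3, log2 fold change 0.81, limma adjusted p = 0.0222). The call was lost in 2 of 16 alternatives, without UTX TCD replicate 2 (0.70, adjusted p = 0.0810) and without the trend in limma (0.81, adjusted p = 0.0678). Without WT replicate 2 it was 0.53 (adjusted p = 0.0279), and the lowest adjusted p of the 16 was 0.00273. The part of these differences in the results above was not tested.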

How the data were processed

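RNA-seq and ATAC-seq of sorted CD8+ T_prog_ cells, 3 libraries per genotype and assay, were grouped by the sample labels. For RNA-seq, the authors aligned reads to mm10 (GRCm38) with HISAT2 2.2.1 (submitters' processing notes), counted them with featureCounts and deposited a signal per gene, the count divided by a DESeq2 size factor. Annotation and strand setting were not given in the sources used here, so overlapping and antisense genes, such as the *Gm20696* model over *Foxp1*, are uncertain. For ATAC-seq, the authors aligned with Bowtie2, removed duplicates, called peaks with MACS2, compared genotypes with DiffBind and annotated with HOMER, and the deposited log2 concentrations are means per genotype. A transposase shift was not given in the sources used here. The deposited p-value columns (FDR) were read only to test that every listed peak was under 0.05. The authors' own fold changes and p-values for genes and peaks were not used.

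Whole reads were recovered for 100% of values (tolerance 0.05 of a read). The main test was limma 3.58.1 in R 4.3.3, with a mean-variance trend in eBayes, applied to log2(normalized count + 1) for genes averaging 10 or more normalized counts, after the procedure was tested on simulated data. edgeR 4.0.16 on recovered reads called 2554 genes and DESeq2 1.42.0 called 2422, against 2538 with limma. Alternatives covered pseudocount, filter, scaling, test, replicate block, fold limit, peak limits and each library left out. Positions and exon lengths came from GENCODE vM21, and sequence from GRCm38.

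The members and lists were chosen with earlier results of these data known. Named genes were the 7 factors, *Kdm6a*, the gate markers, up to 4 called genes per list and direction, and the 2 most alike genes per factor. Other genes named from the lists (*Ctnnb1*, *Tcf3*, *Tcf12* and *Il7r*), the single cell type markers described, the motif letters, the sequence windows and the alternatives for genes other than the 7 were chosen after values were seen. Some items that the rule selects are not reported here.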

Additional observations from a re-analysis of the deposited data

How the results depend on the processing

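*Lef1* and *Foxp1* stayed past an adjusted p of 0.05 in all 16 alternatives, and *Tcf7* and *Satb1* stayed short of it in all 16. No direction reversed. Leaving out 1 library gave 2162 to 2572 genes called, 0 to 2 of the 7 factors called, and 2 to 4 higher and 0 to 1 lower by adjusted p alone. The log2 fold changes then ranged from 0.15 to 0.57 for *Id3*, 0.29 to 0.62 for *Myb* and -0.20 to -0.12 for *Foxo1*, and these fits have fewer samples. With no limit on the fold change, 5887 genes and 4 of the 7 factors passed. *Myb* passed the fold limit, so that 1 factor was called, with libraries scaled to the same sum (0.55) and with edgeR (0.50). It lost its adjusted p without the trend (0.48) and with DESeq2 (0.50). *Foxo1* lost its adjusted p, leaving 0 factors lower, with no filter (-0.15), without the trend (-0.15) and with scaling to the same sum (-0.090), which moves the median of all genes to 0.06. The cause was not tested.

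The replicate numbers did not pair the libraries: deviations of same-numbered libraries correlated at 0.31, -0.20 and 0.09. With the replicate block 2474 genes were called, and *Myb* (0.48, adjusted p = 0.0589) and *Foxo1* (-0.15, adjusted p = 0.0696) missed the limit, leaving 0 factors lower. Chi-square per gene, which grows with depth, was 72.5 and 110.4 for WT replicate 2 against WT replicates 1 and 3, and 29.2 between WT replicates 1 and 3. For UTX TCD replicate 3 it was 32.6 and 47.8 against replicates 1 and 2, and 12.5 between UTX TCD replicates 1 and 2. The part of these differences in the calls of single genes was not tested.

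Of the peaks, 68 higher and 8 lower remained where the means lay over 0.5 apart, against 11809 higher and 5694 lower of all listed peaks. Within 100 kb of the start site, 114 higher and 6 lower remained. All listed peaks within that distance numbered 21812, and their split by direction was not counted. With only group means for ATAC-seq, leaving out a library was not possible there. The floor of 3 reads is 2.21 to 6.75 normalized counts per library, far below the 7 factors, and covers counting error only.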
